A study of Mus musculus with 30 samples.

Results

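The change between the first and the second hour of cycloheximide treatment was described in NIH/3T3 cells, a line of mouse embryonic fibroblasts. The members were the 6 libraries of the fibroblasts taken at 1 h and at 2 h, 3 replicates (A, B and C) at each time, of 30 libraries in the series, and all genes were considered. The series measured polyadenylated RNA by sequencing in NIH/3T3 and in CGR8, a line of mouse embryonic stem cells, at 0, 1, 2, 5 and 48 h, with 3 replicates each. Every group carried the genotype named ROSA26 SLT knock-in and was given 0.1 µg/mL cycloheximide, and the labels list the drug for the 0 h group too. The fibroblasts were kept in DMEM with 10% fetal bovine serum. Nothing in the labels says that the replicates were separate cultures, so the p-values measure the spread between these samples, which may be technical.

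Cycloheximide stops ribosomes during elongation and so blocks the making of new protein. Immediate-early genes encode transcription factors, feedback inhibitors and secreted signals that growth factors switch on without new protein, and their mRNAs are short-lived and known to accumulate when translation is blocked. Nonsense-mediated decay, which removes RNAs with a premature stop codon and many translated non-coding RNAs, also needs translation.

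The 6 libraries held 19600461 to 28512899 counts. Levels below are in CPM, the usual scaling of counts to a common library total, here with library composition taken into account. Fibroblast markers were high, with Col1a1 between 1590 and 3030 CPM and Vim between 4200 and 5630 CPM, but Thy1 did not exceed 0.0831 CPM and Postn did not exceed 0.753 CPM. The 6 stem cell markers summed to 0.167 to 0.276 CPM at 1 h and 0.166 to 0.476 CPM at 2 h. The 5 macrophage markers summed to 3.77 to 4.45 CPM at 1 h and 2.60 to 6.49 CPM at 2 h with Adgre1 at 0, and the 4 epithelial markers to 1.30 to 1.89 CPM at 1 h and 0.998 to 1.48 CPM at 2 h with Krt18 at 0. Endothelial markers summed to 1.52 to 2.70 CPM at 1 h and 1.5 to 1.94 CPM at 2 h.

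2 of the 6 libraries stood apart from their replicates. The spread of log2 levels around the group mean was 0.363 (SD over genes) in 1 h replicate C and 0.346 in 2 h replicate A, against 0.152 to 0.246 in the other 13 fibroblast libraries. In 1 h replicate C, longer transcripts were lower than in the other 1 h libraries (Spearman correlation of the deviation with transcript length -0.52, across genes, which are not independent replicates), and ribosomal protein mRNAs took 8.89% of the counts against 6.17% and 5.76% in replicates A and B. In 2 h replicate A the deviation followed GC content instead (Spearman correlation 0.45, across genes). Such correlations were not particular to these libraries, since with GC content the value was 0.51 in 0 h replicate C. It was -0.47 with GC content in 2 h replicate B and 0.51 with length in 1 h replicate B. The deviations of a gene within a time cancel out, so these last values partly mirror 2 h replicate A and 1 h replicate C. Since 1 h replicate C and 2 h replicate A had the larger spread, results are given with and without them. Leaving them out leaves 2 libraries at each time. They were left out for their values, and the other times then weigh more in the estimate of the spread. The p-values from that fit may therefore be too small.

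Of 57186 genes in the table, 13941 passed the filter on low counts and were tested. From 1 h to 2 h, 2419 of these 13941 genes (17.4%) changed at an adjusted p under 0.05 by edgeR's quasi-likelihood test, 847 of them higher (6.08%) and 1572 lower (11.3%). A change of at least 2-fold was found for 165 genes (1.18%), of which 80 were higher (0.574%) and 85 lower (0.610%). The split moved with the scaling: with DESeq2's size factors in edgeR 59.0% of the genes at least 2-fold changed were higher, against 48.5% here. The median change of all genes tested was -0.04 on the log2 scale. The 3 libraries of 2 h and the 3 of 1 h did not overlap for 2482 genes (17.8%). The number of genes called depended on single libraries. It was 555 without 1 h replicate A, 655 without 1 h replicate B and 6295 without 1 h replicate C, and 3785 without 2 h replicate A, 1060 without 2 h replicate B and 511 without 2 h replicate C. Without both libraries that stood apart, 7419 of 14284 genes tested were called, 3439 higher and 3980 lower. They held 2391 of the 2419, each in the same direction. Group counts from that fit are to be read beside these counts over all genes. When the 6 libraries were fitted with no other time point to estimate the spread, 60 genes were called, all of them among the 2419. The 2-fold count likewise moved from 165 to 97 without 1 h replicate A, 101 without 1 h replicate B, 370 without 1 h replicate C, 284 without 2 h replicate A, 98 without 2 h replicate C and 482 without both libraries that stood apart. In this bulk RNA, a change in how many cells express a gene and a change per cell cannot be told apart.

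The 12 largest rises among genes of at least 10 CPM were Atf3, Junb, Skil, Fosb, Arid5a, Kctd11, Egr3, Hes1, Dusp5, Hbegf, Tcim and Bhlhe40, with log2 fold changes between 1.49 and 2.09. The 12 largest falls were Cbx2, Hspa2, Ahdc1, Mex3b, Zc3hav1l, Fam217b, Fam102a, Tprn, Tfap4, Sema4c, Zfp12 and Dpysl2, between -1.71 and -1.04. All 24 were also called without 1 h replicate C and 2 h replicate A, with rises of 1.37 to 2.21 and falls of -1.54 to -1.06. The genes were picked for the size of the change, so these values describe them and no support is taken from them. Each was required to have no overlap between the 2 times, and the plot of the largest changes shows it for every library.

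**Figure D1:**
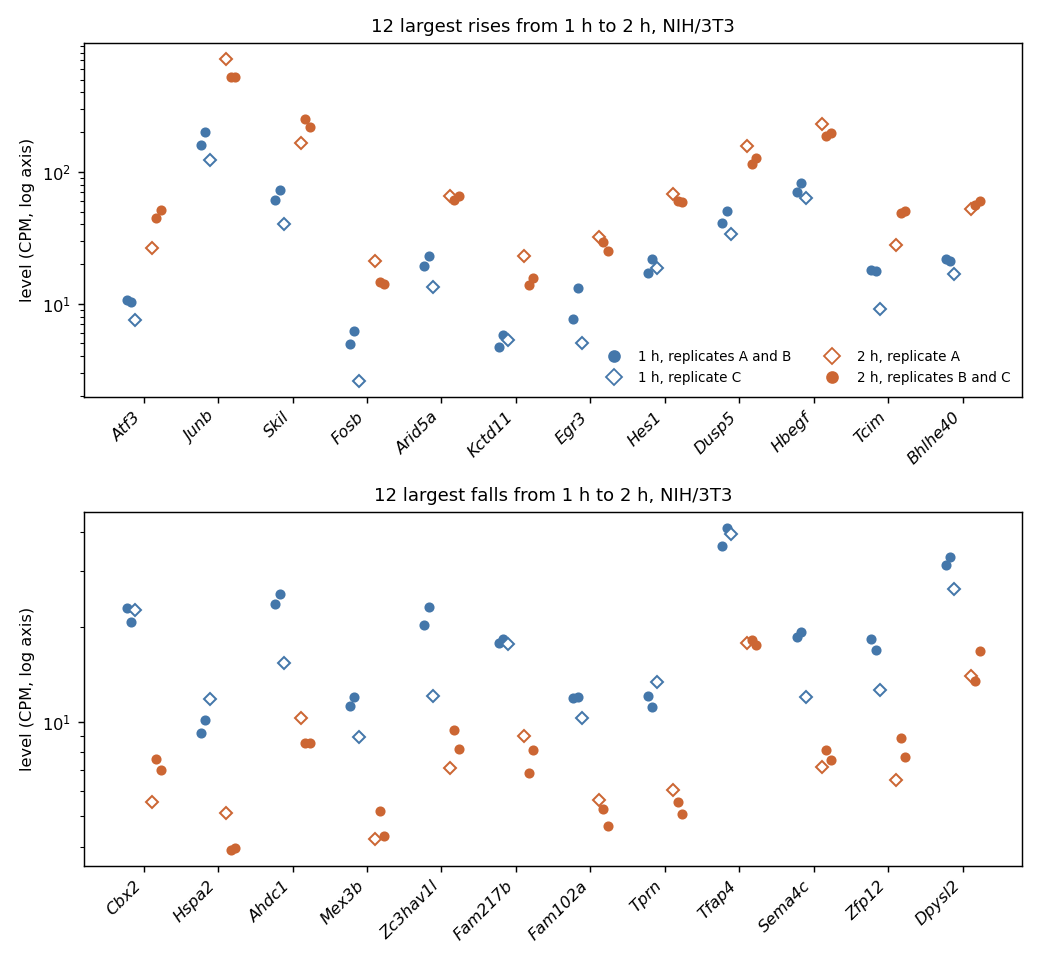
Level of the 12 genes with the largest rise (top) and the 12 with the largest fall (bottom) in each of the 6 NIH/3T3 libraries, in CPM on a log axis. Blue marks 1 h, orange 2 h, and the open diamonds are 1 h replicate C and 2 h replicate A. Atf3 went from 7.48 to 10.7 CPM at 1 h to 26.5 to 51.0 CPM at 2 h, and Cbx2 from 20.7 to 22.9 CPM to 5.56 to 7.61 CPM.

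The leucine zipper factors of the AP-1 family, which dimerise and drive early response genes, mostly rose. Of 11 members tested, 8 rose (72.7%, against 6.08% of all genes) and 1 fell (9.09%, against 11.3%), and their median change was 0.50 on the log2 scale against -0.04 for all genes. With the 6 libraries alone 3 rose and none fell. Atf3 (ENSMUSG00000026628.14), a stress-induced member that often represses, stood at 10.7, 10.3 and 7.48 CPM at 1 h and at 26.5, 44.4 and 51.0 CPM at 2 h. Its mean had been 3.20 CPM at 0 h and was 8.10 CPM at 5 h, so the 2 h libraries were the highest of these 4 times. The rise of 2.09 ± 0.19 (SE, log2; adjusted p = 5.68e-06) was 2.21 without the 2 libraries that stood apart. Junb, a Jun protein that restrains proliferation, was at 159, 200 and 123 CPM at 1 h and 718, 523 and 523 CPM at 2 h. It rose by 1.87 ± 0.16 (SE, log2; adjusted p = 2.25e-06), or 1.57 without those 2 libraries, and at 5 h it was at 26.2 ± 2.18 CPM (SD, n = 3), under its 0 h mean of 59.5 CPM. Junb overlaps Prdx2 on the opposite strand, so reads could be shared if strand was not used in counting.

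Fosb, a Fos partner of the Jun proteins, was low at 1 h (4.99, 6.17 and 2.61 CPM) and reached 21.1, 14.6 and 14.2 CPM at 2 h. The highest 2 h value came from replicate A and the lowest 1 h value from replicate C, and its rise of 1.84 ± 0.25 (SE, log2) was 1.41 without both. Jun, the founding Jun protein, rose by 0.65 ± 0.10 from 582, 631 and 502 CPM to 1020, 831 and 843 CPM, with an adjusted p of 8.03e-04. Maff and Mafk, small Maf proteins that lack an activation domain, rose by 0.73 ± 0.14 and 0.42 ± 0.09. Jund and Fosl2 also passed the test (0.50 ± 0.14 and 0.46 ± 0.14), and their changes shrank to 0.30 and 0.19 without the 2 libraries. Fos itself did not pass: it had gone from 0.597 CPM at 0 h to 7.47, 9.69 and 6.10 CPM at 1 h, and at 2 h was at 10.6, 8.05 and 8.87 CPM, so the groups overlapped. Jdp2, a repressor of AP-1 sites, was the member that fell, by 0.77 on the log2 scale (SE 0.12, adjusted p = 7.18e-04), from 20.3, 19.5 and 21.4 CPM to 14.6, 10.4 and 11.1 CPM.

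Among the EGR zinc fingers, NR4A orphan receptors, their NAB co-repressors and the IER proteins, 8 of 12 tested members rose (66.7%, against 6.08% of all genes) and none fell (against 11.3%), with a median change of 0.79. With the 6 libraries alone 5 rose. With 1 h replicate C and 2 h replicate A left out, the count was again 8 and 0, with a median of 0.71. Egr3 went from 7.68, 13.1 and 5.02 CPM to 32.2, 29.3 and 25.1 CPM (1.74 ± 0.26, SE, log2; adjusted p = 7.02e-04) and was at 1.18 CPM at 5 h. Egr2 rose from 65.1, 86.4 and 54.5 CPM to 155, 131 and 129 CPM. Nr4a3 rose by 1.55 ± 0.35 at a low level, from 0.768, 1.01 and 0.148 CPM to 1.96, 2.04 and 1.89 CPM. Nr4a1 rose by 0.78 ± 0.19 from 34.3, 37.4 and 16.9 CPM to 44.1, 52.4 and 55.7 CPM. Ier3, an early response gene linked to cell survival, rose by 1.26 ± 0.09 from 105, 113 and 95.4 CPM to 254, 242 and 258 CPM, and Ier2 and Ier5 rose by 0.93 ± 0.10 and 0.81 ± 0.08.

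Egr1, the best known member of this family, behaved otherwise. It was at 117 CPM at 0 h, at 587, 762 and 399 CPM at 1 h and at 750, 636 and 601 CPM at 2 h, so the 1 h and 2 h libraries overlapped. Its change in the second hour was 0.19 ± 0.16 (SE, log2; adjusted p = 0.432), and -0.09 without 1 h replicate C and 2 h replicate A. With length and GC trends removed it was 0.52 and passed the test. At 5 h it was at 5.91 ± 0.667 CPM (SD, n = 3). Nab1 and Nab2, the co-repressors that bind EGR proteins, did not pass either (-0.15 ± 0.09 and 0.12 ± 0.10).

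Inhibitors that act back on receptor tyrosine kinase and ERK signalling also moved. Of 16 tested members, 8 rose (50%, against 6.08% of all genes) and 2 fell (12.5%, near the 11.3% of all genes), with a median of 0.37. Without the 2 libraries 9 rose and 4 fell, without 1 h replicate A, 1 h replicate B, 2 h replicate B or 2 h replicate C 1 fell, and with the 6 libraries alone 2 rose and none fell. Dusp5, a nuclear phosphatase that dephosphorylates ERK, was at 41.2, 50.2 and 33.9 CPM at 1 h and at 158, 115 and 127 CPM at 2 h, a rise of 1.68 ± 0.15 (SE, log2; adjusted p = 2.99e-06). Errfi1, which binds and inhibits the EGF receptor, went from 166, 209 and 104 CPM to 479, 421 and 408 CPM (1.45 ± 0.17; adjusted p = 4.97e-05). Dusp6, the cytoplasmic ERK phosphatase, rose by 0.60 ± 0.09 and Dusp1 by 0.49 ± 0.11, and Spry2, a Sprouty inhibitor of the pathway, by 0.45 ± 0.09. Members of the same families went the other way: Dusp7 fell by 0.69 on the log2 scale (SE 0.11) from 56.1, 55.0 and 41.2 CPM to 28.0, 33.7 and 32.6 CPM, and Spred2 fell by 0.37 (SE 0.10). Spry4 and Dusp4 did not pass the test (0.20 ± 0.14 and 0.30 ± 0.11).

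Feedback genes of BMP and TGF-beta signalling rose in 8 of 13 tested cases (61.5%, against 6.08% of all genes) with none lower (median 0.38). The count was 5 without 1 h replicate A or without 2 h replicate C, 3 with the 6 libraries alone, and 9 higher and 2 lower without both libraries that stood apart. Skil, which encodes the SMAD co-repressor SnoN, was at 60.8, 72.4 and 40.5 CPM at 1 h and 165, 250 and 219 CPM at 2 h. Its rise of 1.87 ± 0.17 (SE, log2; adjusted p = 5.68e-06) was 1.85 without the 2 libraries. The ID proteins, which block basic helix-loop-helix factors from binding DNA, all passed: Id2 rose by 1.07 ± 0.11, Id3 by 0.86 ± 0.09, Id1 by 0.50 ± 0.10 and Id4 by 0.38 ± 0.13. Smad7, the inhibitory SMAD, rose by 0.58 ± 0.16. Ski, the close relative of Skil, was at 126, 131 and 88.8 CPM at 1 h and 112, 89.6 and 77.8 CPM at 2 h and did not pass (-0.31 ± 0.14), but without the 2 libraries it was called lower (-0.59, adjusted p = 8.22e-06).

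Regulators outside these families were also among the largest rises. Shares called in this paragraph stand beside 6.08% of all genes higher and 11.3% lower. Hes1, a helix-loop-helix repressor and Notch target, went from 17.0, 22.0 and 18.6 CPM to 67.6, 59.7 and 59.3 CPM (1.70 ± 0.11, SE, log2; adjusted p = 2.97e-07) and was back at 12.5 CPM at 5 h. Of 8 Notch pathway genes tested, Hes1 was the 1 that rose (12.5%). Notch1 and Notch2 were lower (25% of the 8), with changes of -0.97 ± 0.24 and -0.54 ± 0.17. None was called lower without 1 h replicate A, 1 h replicate B or 2 h replicate C, and 1 without 2 h replicate B. The ligand gene Jag1 did not pass (0.23 ± 0.14). Bhlhe40, which represses clock genes, rose from 21.8, 21.2 and 16.8 CPM to 52.3, 55.8 and 59.7 CPM (1.49 ± 0.10), and Nfil3, a repressor of the clock's output, from 13.9, 16.8 and 14.5 CPM to 47.7, 37.6 and 40.3 CPM (1.47 ± 0.11). Of 17 clock genes tested, 4 rose (23.5%) and 1 fell (5.88%), and the negative limb genes Per1, Per2 and Cry1 did not pass (0.39 ± 0.20, -0.01 ± 0.23 and 0.05 ± 0.10). Arid5a, an RNA-binding protein that stabilises inflammatory mRNAs, rose from 19.2, 23.0 and 13.5 CPM to 65.2, 61.1 and 65.4 CPM (1.78 ± 0.14). Kctd11, which encodes an adaptor of a ubiquitin ligase, rose from 4.67, 5.79 and 5.27 CPM to 23.1, 13.8 and 15.7 CPM (1.74 ± 0.18). Tcim, a small regulator of Wnt signalling, rose from 18.1, 17.7 and 9.06 CPM to 28.1, 48.9 and 50.1 CPM (1.5 ± 0.23), the 2 libraries that stood apart being the lowest of their times. Bhlhe40, Dusp5 and Tcim overlap genes on the opposite strand. Of 12 Kruppel-like factors tested, 5 rose (41.7%) and 1 fell (8.33%), and without 1 h replicate A, 2 h replicate B or 2 h replicate C 3 rose. Klf10 rose by 1.1 ± 0.12 from 146, 166 and 106 CPM to 282, 315 and 301 CPM.

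Messages of many secreted and surface proteins rose. Of 25 tested, 18 rose (72%, against 6.08% of all genes) and none fell, with a median of 0.62. In the fit without both libraries that stood apart, 22 rose and none fell, without 2 h replicate C 10 rose, without 2 h replicate B 13, and with the 6 libraries alone 1. Hbegf, a ligand of the EGF receptor, was at 70.7, 82.0 and 62.9 CPM at 1 h and 231, 187 and 198 CPM at 2 h (1.51 ± 0.10, SE, log2; adjusted p = 3.17e-07). Ereg, another ligand of that receptor family, rose by 0.97 ± 0.20 from 82.2, 87.3 and 52.9 CPM to 89.1, 176 and 171 CPM. Ccn2, a matricellular protein, rose by 1.11 ± 0.17 to 413, 336 and 346 CPM. The cytokine genes Il6 and Il11 rose by 1.83 ± 0.41 and 1.20 ± 0.25, Il6 from at most 0.384 CPM to 0.60, 1.28 and 1.29 CPM. The chemokine gene Cxcl1 went from 3.21, 4.70 and 1.38 CPM to 1.36, 9.57 and 10.4 CPM, with 2 h replicate A below every 1 h library, and missed the threshold (1.20 ± 0.46, adjusted p = 0.0803), with 1.38 and an adjusted p of 2.39e-06 without the 2 libraries. Ptgs2, the inducible cyclooxygenase, went from 1270, 1500 and 675 CPM to 1290, 1920 and 1650 CPM and did not pass with all libraries (0.50 ± 0.21).

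Of 15 tested genes of the NF-kB factors and their inhibitors, 2 rose (13.3%, against 6.08% of all genes) and none fell (against 11.3%). Without the 2 libraries 3 of 16 rose and 3 fell, beside 3439 and 3980 of all 14284 genes tested in that fit. Tnfaip3, a ubiquitin-editing inhibitor, went from 6.52, 6.59 and 2.66 CPM to 9.98, 11.6 and 11.1 CPM (1.04 ± 0.23, SE, log2; adjusted p = 0.00922) and Relb rose by 0.49 ± 0.12, while Nfkbia, the inhibitor that resynthesis restores after activation, gave 0.19 ± 0.09 and missed the threshold. Of 13 SOCS and STAT feedback genes, 5 rose (38.5%) and 1 fell (7.69%), with 5 and 4 without the 2 libraries and none with the 6 libraries alone, Socs2 by 0.85 ± 0.20 and Socs3 by 0.32 ± 0.09 among those higher. Among 10 regulators of mRNA decay, 2 rose (20%) and 1 fell (10%, near the 11.3% of all genes). Btg2 and Btg1, which recruit the deadenylase, rose by 1.08 ± 0.10 and 0.68 ± 0.07, and Tob2 fell by 0.39 on the log2 scale (SE 0.12). Zfp36, which binds AU-rich elements, was at 31.7, 39.3 and 25.4 CPM at 1 h and 45.7, 32.7 and 36.1 CPM at 2 h and did not pass (0.25 ± 0.15).

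**Figure D2:**
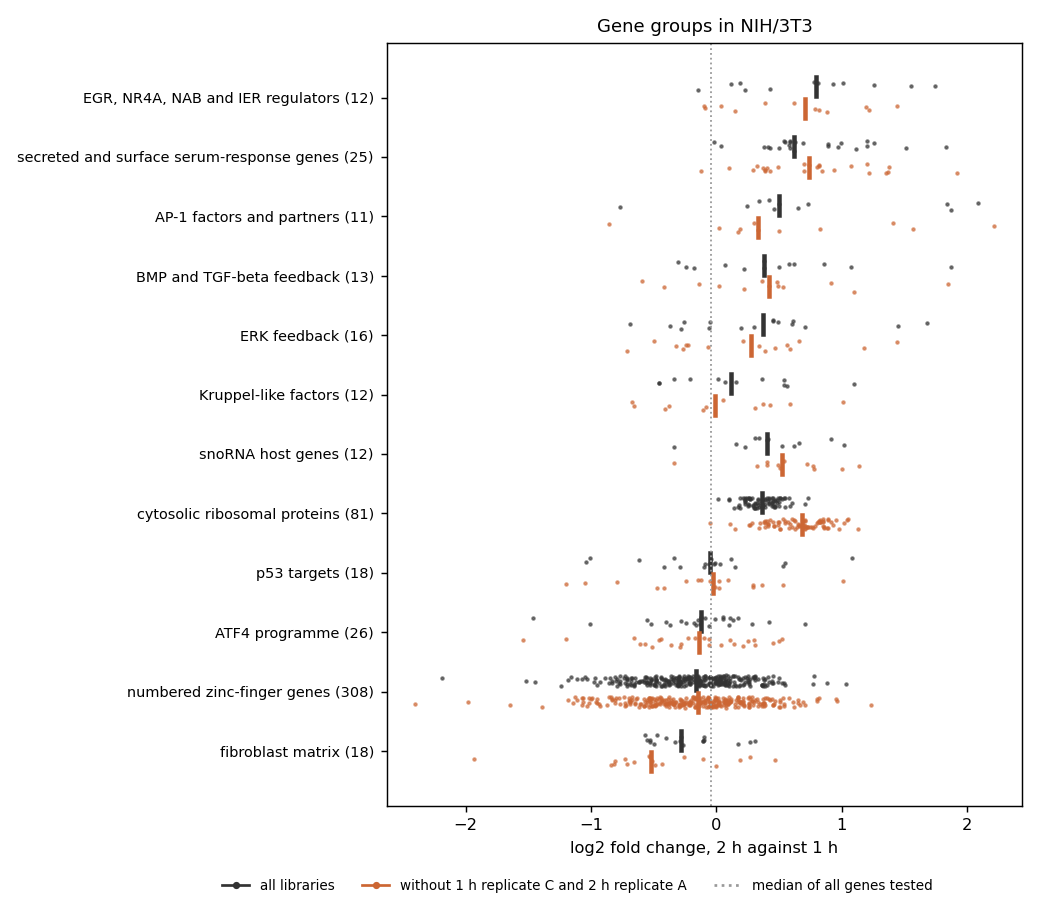
Log2 fold change from 1 h to 2 h of each tested member of 12 gene groups, with the number of members in brackets. Dark points and bars are the members and their median with all libraries, orange those without 1 h replicate C and 2 h replicate A, and the dotted line is the median of all genes tested (-0.04). The medians of the AP-1, EGR and ERK feedback groups (0.50, 0.79 and 0.37 with all libraries) lie above that line in both fits, and the ribosomal protein mRNAs move from a median of 0.36 to 0.68.

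The 12 largest falls held no single family. Cbx2, a Polycomb protein that binds methylated histone H3, was at 22.9, 20.7 and 22.7 CPM at 1 h and at 5.56, 7.61 and 7.03 CPM at 2 h, and fell by 1.71 on the log2 scale (SE 0.11, adjusted p = 2.97e-07). At 5 h it was at 18.2 ± 1.32 CPM (SD, n = 3). Tfap4, a helix-loop-helix factor downstream of MYC, went from 36.1, 41.3 and 39.5 CPM to 17.8, 18.2 and 17.5 CPM (-1.13 ± 0.08) and was at 34.6 CPM at 5 h. Zfp12, a zinc-finger gene, went from 18.3, 16.9 and 12.6 CPM to 6.54, 8.85 and 7.71 CPM (-1.05 ± 0.13) and was at 22.1 CPM at 5 h. For 10 of the 12 falls the 2 h mean was the lowest of the 5 times measured, and for 11 of the 12, Zfp12 being the exception, the 5 h mean was below the 1 h mean.

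Hspa2 and Fam102a were lower still at 5 h than at 2 h. Hspa2, a heat shock protein of the HSP70 family, went from 9.21, 10.1 and 11.8 CPM to 5.13, 3.92 and 3.98 CPM (-1.26 ± 0.14, SE, log2) and was at 3.23 CPM at 5 h. Dpysl2, a regulator of microtubules, went from 31.4, 33.4 and 26.3 CPM to 14.0, 13.5 and 16.7 CPM (-1.04 ± 0.13) and was at 16.4 CPM at 5 h. Fam102a went from 11.9, 12 and 10.3 CPM to 5.62, 5.28 and 4.67 CPM (-1.14 ± 0.12) and was at 4.0 CPM at 5 h. Sema4c, a semaphorin that binds plexin-B receptors, went from 18.5, 19.2 and 12 CPM to 7.20, 8.13 and 7.54 CPM (-1.12 ± 0.14) and was at 9.03 CPM at 5 h. For Dpysl2 and Sema4c the 5 h mean stayed nearer to the 2 h mean than to the 1 h mean.

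Like those of Dpysl2 and Sema4c, the means of the other 5 of the 12 were lowest at 2 h. At 5 h the means were 7.57 CPM for Mex3b, 12.2 CPM for Zc3hav1l, 11.4 CPM for Fam217b and 7.20 CPM for Tprn. Each of these was nearer to the 2 h mean than to the 1 h mean. Mex3b, an RNA-binding ubiquitin ligase, fell from 11.2, 12 and 8.96 CPM to 4.25, 5.20 and 4.33 CPM. Ahdc1, a DNA-binding protein with AT-hook motifs, fell from 23.7, 25.4 and 15.4 CPM to 10.3, 8.57 and 8.57 CPM and was at 17.0 CPM at 5 h. Zc3hav1l went from 20.2, 23.2 and 12.1 CPM to 7.14, 9.37 and 8.18 CPM (-1.17 ± 0.18, SE, log2). In both Ahdc1 and Zc3hav1l, 1 h replicate C was the lowest of its time and still above the 2 h libraries. Fam217b fell from 17.8, 18.3 and 17.6 CPM to 9.0, 6.89 and 8.14 CPM, and Tprn, a protein of the hair cell stereocilia, from 12.1, 11.1 and 13.4 CPM to 6.05, 5.56 and 5.10 CPM.

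The regulatory subunit gene Pik3r2 of phosphoinositide 3-kinase was lower at each step. It was at 92.6 CPM at 0 h, 50.8, 48.5 and 48.1 CPM at 1 h, 27.2, 22.3 and 24.4 CPM at 2 h and 18.1 CPM at 5 h, and the change in the second hour was -1.0 ± 0.09 (SE, log2; adjusted p = 5.68e-06). Of 12 genes tested on the list for that kinase and its adaptors, 1 rose (8.33%, near the 6.08% of all genes) and 3 fell (25%, against 11.3%). The 1 that rose was Phlda1 (0.59 ± 0.13), which encodes neither a subunit nor an adaptor of the kinase. The number lower was 9 without the 2 libraries that stood apart, 8 without 1 h replicate C, 5 without 2 h replicate A and 1 without any 1 of the other 4. Numbered zinc-finger genes, many of which encode DNA-binding repressors with a KRAB domain, gave 58 lower of 308 tested (18.8%, against 11.3% of all genes) and 13 higher (4.22%, against 6.08%), with a median of -0.16, and the difference from all genes was not tested. The number lower was 32 without 1 h replicate A, 33 without 1 h replicate B, 27 without 2 h replicate C, 106 without 1 h replicate C, 104 without both libraries that stood apart and 5 with the 6 libraries alone. The fit without both libraries tested 309 of them, and in it 3980 of all 14284 genes were lower. Zfp251 went from 8.20, 7.72 and 7.04 CPM to 2.51, 3.56 and 3.56 CPM (-1.24 ± 0.13), after a fall from 15.5 CPM at 0 h, and was at 10.5 CPM at 5 h.

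Stress programmes gave mixed counts. Of 26 tested genes of the ATF4 programme of the integrated stress response, 2 rose (7.69%, near the 6.08% of all genes) and 5 fell (19.2%, against 11.3%), and the median was -0.12. Without the 2 libraries 6 rose and 12 fell, beside 3439 and 3980 of all 14284 genes tested in that fit. With the 6 libraries alone 2 fell. Chac1, which degrades glutathione, fell from 8.51, 7.72 and 9.90 CPM to 4.09, 2.64 and 2.83 CPM (-1.46 ± 0.17, SE, log2; adjusted p = 4.40e-05), and Sesn2, an inhibitor of mTORC1, from 60.4, 60.2 and 45.4 CPM to 31.3, 23.9 and 27.7 CPM (-1.01 ± 0.12). Atf4 itself rose by 0.42 ± 0.10. Of 18 tested p53 targets, 3 rose (16.7%, against 6.08% of all genes) and 5 fell (27.8%, against 11.3%). With the 6 libraries alone 1 rose and 1 fell. Cdkn1a and Mdm2, both direct targets, changed by 0.03 ± 0.08 and -0.01 ± 0.08 and did not pass, while Trp53inp1 fell by 1.04 on the log2 scale (SE 0.18). Of 12 chaperone genes driven by heat-shock factor 1, 1 rose (8.33%, near the 6.08% of all genes) and 4 fell (33.3%, against 11.3%). The number lower was 1 without 1 h replicate A or without 2 h replicate C, and 6 without the 2 libraries that stood apart. Hspa1b went from 6.11, 4.87 and 6.94 CPM to 1.91, 1.44 and 1.46 CPM (-1.91 ± 0.18); it has a near-identical copy, Hspa1a, so its count is uncertain.

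Matrix genes that define fibroblasts were lower or did not pass. Of 18 tested, 8 fell (44.4%, against 11.3% of all genes) and none rose (median -0.29). The number lower was 1 without 1 h replicate A, 1 h replicate B or 2 h replicate C, 3 without 2 h replicate B and 0 with the 6 libraries alone. Col5a2 went from 1350, 1280 and 1000 CPM to 882, 788 and 847 CPM (-0.53 ± 0.11, SE, log2; adjusted p = 0.00559). Col1a1 fell by 0.53 on the log2 scale (SE 0.16) from 3010, 2960 and 2010 CPM to 2280, 1610 and 1660 CPM, so that 1 h replicate C lay among the 2 h libraries. With 1 h replicate C and 2 h replicate A left out, 12 of 19 matrix genes were lower and 4 higher. In that fit 3980 of all 14284 genes were lower and 3439 higher. When trends with transcript length and GC content were removed, 2 of 18 matrix genes were lower and 2 higher.

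Ribosomal protein mRNAs all had a change above 0. Of 81 tested, 21 rose (25.9% against 6.08% of all genes) and none fell (median 0.36). Rpl41, the gene of the smallest ribosomal protein, went from 1220, 1170 and 1630 CPM to 1470, 2490 and 2630 CPM (0.71 ± 0.17, SE, log2; adjusted p = 0.0130). Without the 2 libraries 76 rose, with a median of 0.68. None rose without 1 h replicate A, without 1 h replicate B or without 2 h replicate C, 3 rose without 2 h replicate B and 77 without 1 h replicate C. With the 6 libraries alone none passed, and with the length and GC trends removed 15 rose, with a median of 0.16. Mitochondrial ribosomal proteins (19 of 78 rose, 24.4%, none fell), nuclear-encoded respiratory chain subunits (14 of 72 rose, 19.4%, none fell) and proteasome subunits (8 of 36 rose, 22.2%, none fell) gave like counts. In the fit without both libraries that stood apart, where 3439 of all 14284 genes were higher, these counts were 70, 66 and 32. After removal of the trends they were 13, 1 and 6. Without 1 h replicate A, 1 h replicate B, 2 h replicate B or 2 h replicate C they were 0 or 1 for the first, 0 for the second and 1 for the third. Transcript length moved with the calls over all genes: the median transcript was 1785 bases for genes called higher, 4932 bases for those called lower and 2838 bases for all genes tested. Without the 2 libraries the medians were 1733 and 4550 bases. With the trends removed they were 3071 and 3512 bases, and 944 genes (55.1% of those called, against 35.0% before) were higher and 770 lower.

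Hosts of small nucleolar RNAs, spliced RNAs that are exported, translated without a useful product and cleared by nonsense-mediated decay, split the libraries of each time. Snhg1 was at 97.0 CPM at 0 h, 125, 135 and 53.8 CPM at 1 h, 75.8, 281 and 280 CPM at 2 h and 372 CPM at 5 h. Zfas1 was at 43.1 CPM at 0 h, 62.8, 63.9 and 13.7 CPM at 1 h, 15.5, 118 and 131 CPM at 2 h and 206 CPM at 5 h. In 10 of the 12 tested hosts, 1 h replicate C was below replicates A and B, and in 10 of 12, 2 h replicate A was below replicates B and C. None of the 12 passed in edgeR with all libraries and the settings used for the other counts (median 0.41). Of these, 2 had an unadjusted p under 0.05. DESeq2 called 1, and edgeR called 1 with DESeq2's size factors and 6 of 13 without the low-count filter, all higher. With voom weights, where 8092 of 13941 genes were called, 11 hosts were higher and 1 lower. Without 2 h replicate A alone 8 were higher. With 1 h replicate C and 2 h replicate A left out, 11 were called higher and 1, Snhg5, lower, with Snhg1 at 1.14 (adjusted p = 4.59e-10), Zfas1 at 1.00 (adjusted p = 5.94e-08) and Gas5 at 0.49 (adjusted p = 4.73e-06). These p-values may be too small, since a library that lay below its replicates at 2 h was left out. In that fit 3439 of all 14284 genes were higher and 3980 lower.

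**Figure D3:**
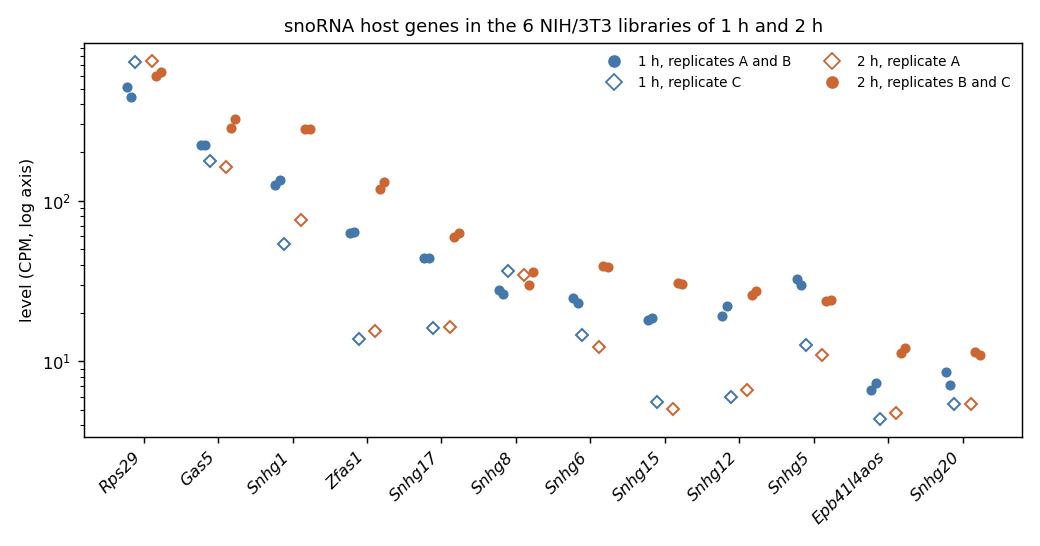
Level of the 12 tested snoRNA host genes in each of the 6 NIH/3T3 libraries, in CPM on a log axis, with 1 h in blue and 2 h in orange. The open diamonds are 1 h replicate C and 2 h replicate A. That of 1 h lies below the filled points of 1 h for 10 of the 12 genes, and that of 2 h below those of 2 h for 10 of the 12. Zfas1, at 13.7 and 15.5 CPM, is among both.

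In the remaining groups the share called with all libraries varied, beside 6.08% of all genes higher and 11.3% lower. It was 60% lower for Wnt targets, 50% higher for alpha-arrestin and Mondo genes and 33.3% lower for targets of YAP and TEAD. It was 8.33% lower for cholesterol genes and 8.33% higher for BCL2 family genes. Most of these groups had more calls without the 2 libraries that stood apart, where 3439 of 14284 genes were higher and 3980 lower. Of 6 tested alpha-arrestin and Mondo genes 3 rose, Txnip by 0.62 ± 0.15 and Arrdc3, which removes receptors from the surface, by 0.85 ± 0.12 (SE, log2). Of 13 tested replication-dependent histone genes 3 rose and none fell, the linker histone gene Hist1h1c from 5.79, 4.49 and 4.14 CPM to 6.82, 12.4 and 11.8 CPM. The actin and SRF group had 1 higher and 3 lower of 16 (3 and 9 without the 2 libraries), targets of YAP and TEAD 2 and 4 of 12 (2 and 8), G1 cyclins and CDK inhibitors 1 and 3 of 11 (4 and 5), and Wnt targets 0 and 3 of 5 (0 and 4). Polyamine genes had 2 higher and 0 lower of 10 (6 and 0), BCL2 family genes 1 and 0 of 12 (4 and 2), ubiquitin precursors 1 and 0 of 4 (2 and 0), and MYC, MAX and MXD genes 0 and 1 of 9 (2 and 4). NRF2 targets had 0 higher and 2 lower of 13 (2 and 6) and cholesterol genes 0 and 2 of 24 (2 and 9). With the 6 libraries alone none of these 10 groups had a call. No tubulin gene of 9 and no mitochondrially encoded mRNA of 9 passed in edgeR, with 1 tubulin gene and 0 mitochondrial mRNAs at an unadjusted p under 0.05, and DESeq2 called 0 of either. Without the 2 libraries 4 tubulin genes were higher and 2 lower, and 2 of 10 mitochondrial mRNAs were lower.

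The promoter letters of the largest changes were read from RefSeq (GRCm38.p6) over the 250 bases before the start, on both strands. They are shown for the 5 genes of the largest changes whose entry holds one of the motifs searched. Atf3, Junb, Arid5a, Fam102a, Fam217b, Hspa2, Mex3b, Tprn, Zc3hav1l and Zfp12 had an entry with none of the motifs. Skil, Hes1, Egr3, Tcim, Bhlhe40, Cbx2, Tfap4 and Dpysl2 had no entry, so their promoters were not searched. The promoter of Hbegf is not reported here. Capitals mark the motif: a pair of adjoining CArG boxes, the site of serum response factor, in Dusp5 (chr19:53528895-53529144, plus strand), an AP-1 site in Kctd11 (chr11:69880986-69881235, minus strand), and NF-kB sites in Fosb (chr7:19310046-19310295, minus strand) and in Ahdc1, one of the falls (chr4:133011256-133011505, plus strand). Sema4c, another fall, holds an AP-1 and an NF-kB site before the one of its 2 starts shown here (chr1:36558382-36558631, minus strand).
Dusp5: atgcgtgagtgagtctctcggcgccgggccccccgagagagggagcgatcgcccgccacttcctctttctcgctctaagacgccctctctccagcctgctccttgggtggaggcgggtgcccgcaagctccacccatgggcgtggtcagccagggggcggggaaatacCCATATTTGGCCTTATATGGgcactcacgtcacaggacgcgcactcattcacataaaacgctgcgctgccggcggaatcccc
Kctd11: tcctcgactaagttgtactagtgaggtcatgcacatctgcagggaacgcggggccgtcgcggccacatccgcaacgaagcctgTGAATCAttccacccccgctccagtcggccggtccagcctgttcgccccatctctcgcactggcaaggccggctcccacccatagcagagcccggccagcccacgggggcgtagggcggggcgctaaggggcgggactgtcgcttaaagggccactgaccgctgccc
Fosb: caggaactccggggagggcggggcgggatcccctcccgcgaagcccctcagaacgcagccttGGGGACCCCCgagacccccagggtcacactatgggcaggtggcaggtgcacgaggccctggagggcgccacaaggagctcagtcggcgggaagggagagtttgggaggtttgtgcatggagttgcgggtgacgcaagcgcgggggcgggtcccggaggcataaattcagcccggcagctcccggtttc
Ahdc1: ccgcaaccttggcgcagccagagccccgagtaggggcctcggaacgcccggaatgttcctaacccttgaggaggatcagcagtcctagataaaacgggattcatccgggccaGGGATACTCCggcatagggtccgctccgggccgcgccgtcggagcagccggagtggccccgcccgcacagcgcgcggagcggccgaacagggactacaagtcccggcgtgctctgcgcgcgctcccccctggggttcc
Sema4c: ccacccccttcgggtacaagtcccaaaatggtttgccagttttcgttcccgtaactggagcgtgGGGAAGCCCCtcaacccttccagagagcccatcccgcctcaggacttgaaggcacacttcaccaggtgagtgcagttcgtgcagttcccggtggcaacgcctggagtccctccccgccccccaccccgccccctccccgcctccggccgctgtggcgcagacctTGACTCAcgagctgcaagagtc
A match is a description of letters and not a bound site.

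Of the 80 genes called at least 2-fold higher, 43 had an entry, with 64 promoters, and of the 85 at least 2-fold lower, 47, with 54 promoters, so the shares cover only the matched genes. The AP-1 letters TGANTCA stood in 14.1% of the promoters of these rising genes and 3.70% of those of these falling genes, against 4.64% of 12151 promoters of all genes tested. Over all genes called, whatever the size of the change, they stood in 5.43% of 755 promoters of those higher. The share was 4.53% of 1634 promoters of those lower. The genes at least 2-fold higher that held them were Apol9a, Apol9b, Csrnp1, Gm8126, Gm8883, Il6, Il11, Kctd11 and Tnfaip3. A CArG box stood in 5 of 64 promoters of rising genes, 4 of which belong to the starts of a single gene, Egr2, and the fifth to Dusp5, and in none of the 54. The TATA letters TATAAA stood in 12.5% and 1.85% against 6.38%, the NF-kB motif in 9.38% and 7.41% against 4.31%, and the cAMP-response element TGACGTCA, whose letters do not contain TGANTCA, in 4.69% and 3.70% against 2.64%. Over all genes called higher and all called lower, the TATA share was 8.48% and 5.20%. The NF-kB share was 3.71% and 5.51%, and that of the cAMP-response element 5.17% and 2.08%. The E-box CACGTG stood in 6.25% and 5.56% against 8.20%, and the EGR letters GCGTGGGCG in none of the 64 and 1 of the 54 promoters.

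AUUUA pentamers, the core of AU-rich elements in unstable mRNAs, were counted in the annotated 3′ untranslated regions. Such a region was found for 50 of the 80 genes at least 2-fold higher, 66 of the 85 at least 2-fold lower and 11363 of the 13941 tested. AUUUA stood in 74.0% of these 50, 75.8% of these 66 and 70.1% of these 11363. Per kilobase of 3′ untranslated region there were 1.94 in the rising genes, 1.5 in the falling genes and 1.83 in all. Genes at least 2-fold higher had a median of 3 exons and those at least 2-fold lower 4, against 7 for all.

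The second hour was then compared with the first within the same fit, as the difference between the change from 1 h to 2 h and that from 0 h to 1 h. The test found 44 of 13941 genes (0.316%), 6 with a higher value in the second hour (0.0430%) and 38 with a lower one (0.273%). Both steps use the 1 h libraries, so an error in these moves them in opposite directions. Bhlhe40, Dusp5, Hbegf and Arid5a were the largest on the first side. Bhlhe40 was flat in the first hour (18.7 CPM at 0 h and 19.9 ± 2.70 CPM at 1 h, SD, n = 3), and the difference of the steps was 1.39 ± 0.18 (SE, log2; adjusted p = 0.00176). For Arid5a, at 16.4 CPM at 0 h, the difference was 1.59 ± 0.26 (adjusted p = 0.0162), for Dusp5 1.39 ± 0.25 and for Hbegf 1.05 ± 0.18. On the other side, Egr1 had taken its rise in the first hour and differed by -2.13 ± 0.27 (adjusted p = 0.00176). Txnip, which binds thioredoxin and limits glucose uptake, went from 21.5 CPM at 0 h to 104, 109 and 73.1 CPM at 1 h and 110, 167 and 164 CPM at 2 h, and differed by -1.53 ± 0.26. Cbx2 and Ahdc1, which were not among the 102 genes (0.732%) that changed in the first hour by the test, differed by -1.52 ± 0.18 and -1.58 ± 0.24.

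For Atf3, Junb and Fosb the second step was not shown to differ from the first (0.53 ± 0.35, 0.44 ± 0.27 and 0.14 ± 0.49). The count of 44 depended on single libraries. It was 5 without 1 h replicate A, 10 without 1 h replicate B, 3659 without 1 h replicate C, 284 without 2 h replicate A, 12 without 2 h replicate C, 5 without 0 h replicate A, 15 without 0 h replicate C and 5359 without both libraries that stood apart.

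**Figure D4:**
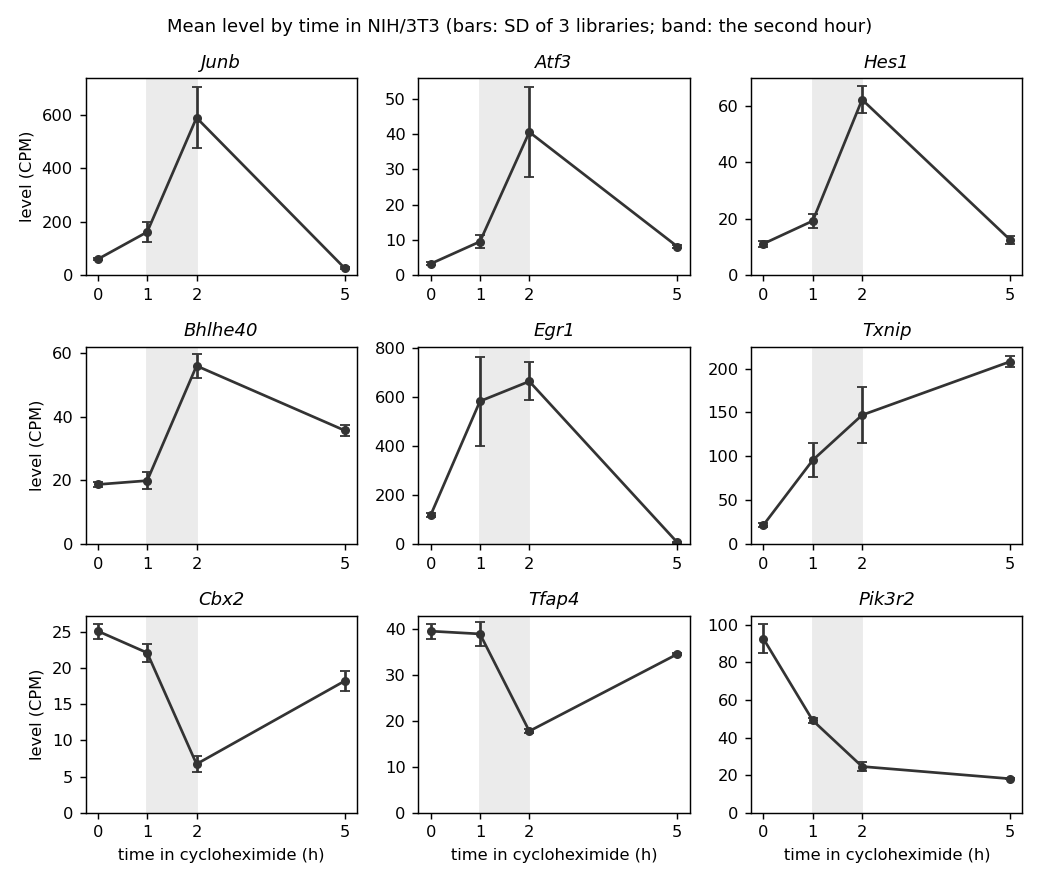
Mean level of 9 named genes in NIH/3T3 at 0, 1, 2 and 5 h in CPM, on linear axes that start at 0, with the SD of 3 libraries as bars and the second hour shaded. In time order, Bhlhe40 stood at 18.7, 19.9, 56.0 and 35.7 CPM, Egr1 at 117, 582, 663 and 5.91 CPM, and Cbx2 at 25.1, 22.1, 6.73 and 18.2 CPM.

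The same hour in the CGR8 stem cells, given the same dose, showed where the fibroblast change differed. The difference of the changes, tested in a fit of all 30 libraries, passed for 101 of 17549 genes (0.576%), 66 with the higher value in NIH/3T3 (0.376%) and 35 with the lower (0.199%), so that 65.3% of those called were higher. With library totals alone as the scaling, 78.6% were higher. The split turned without both fibroblast libraries that stood apart (48.3% higher, 70 against 75) and with voom weights (43.2%, 140 against 184), and was 50.9% without 1 h replicate C. The lines share no library, but they differ in culture and in base level. Of the 12 largest rises of the fibroblasts, 10 had a called difference, and 1 of the 12, Junb, changed in CGR8 by the test, where 13.6% of genes did. The log2 values of the 12 in CGR8 lay between -1.20 and 0.76. The 12 were picked for their rise in the fibroblasts, which is part of the difference tested, so no result is read from the 10.

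Junb was at 28.7, 31.8 and 32.0 CPM at 1 h and 17.3, 12.4 and 13.0 CPM at 2 h in CGR8, so that it was lower there while it rose in the fibroblasts. The changes differed by 2.98 ± 0.21 (SE, log2; adjusted p = 7.88e-10). Atf3 in CGR8 was at 2.13, 2.38 and 2.04 CPM and then 2.49, 1.56 and 1.44 CPM, and differed by 2.35 ± 0.30. Skil in CGR8 was at 16.8, 17.9 and 16.7 CPM and then 12, 16.9 and 17.9 CPM (difference 1.99 ± 0.28), and Nfil3 at 2.42, 2.25 and 1.5 CPM and then 1.85, 1.35 and 1.14 CPM (difference 1.97 ± 0.24). Hes1 in CGR8 was at 24.8, 27.7 and 25.7 CPM and then 26.9, 19.5 and 21.4 CPM, and differed by 1.90 ± 0.25. Egr3 did not exceed 0.129 CPM in CGR8, and its difference between the lines was not shown (0.97 ± 1.53).

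On the other side, Cbx2 was at 39.0, 36.0 and 37.8 CPM and then 35.8, 28.5 and 23.2 CPM in CGR8, and its change in the fibroblasts was lower by -1.34 ± 0.19 (SE, log2; adjusted p = 9.82e-05). Tfap4 was at 42.3 CPM or above in all 6 CGR8 libraries and differed by -1.03 ± 0.12. Zswim3, a zinc-finger gene, went from 7.33, 7.68 and 6.30 CPM to 3.33, 3.84 and 2.53 CPM in the fibroblasts and from 21.9, 18.7 and 19.3 CPM to 21.7, 20.5 and 16.1 CPM in CGR8 (difference -1.11 ± 0.20). Plat, which encodes tissue plasminogen activator, had the same negative value as Cbx2 by another route: it did not pass in the fibroblasts (45, 44.4 and 42.8 CPM, then 36.5, 49.7 and 44.3 CPM) and went from 0.339, 0.389 and 0.461 CPM to 0.989, 0.865 and 1.17 CPM in CGR8. Sesn2, Pik3r2 and Chac1 fell in both lines, and a difference was not shown for them (-0.21 ± 0.18, -0.33 ± 0.14 and 1.35 ± 0.38). Without CGR8 1 h replicate A the count of differing genes was 65 and without CGR8 1 h replicate B it was 62. It was 145 without both fibroblast libraries that stood apart.

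**Figure D5:**
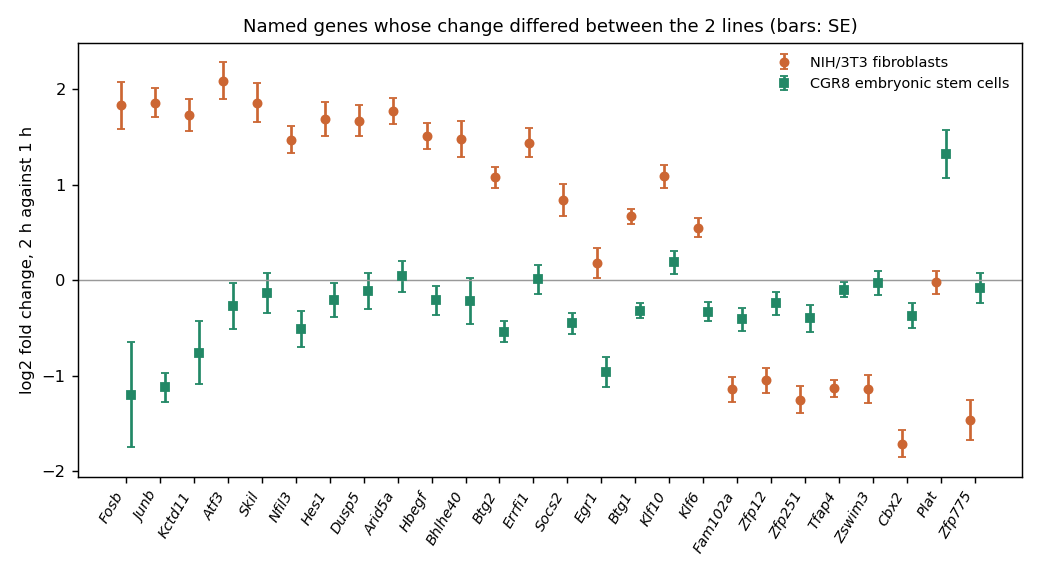
Log2 fold change from 1 h to 2 h in NIH/3T3 (circles) and CGR8 (squares) for the 26 named genes whose change differed between the lines, from the fit of 30 libraries, with the SE as bars. 18 genes have the higher value in NIH/3T3, from Fosb with a difference of 3.03 to Klf6 with 0.88, and 8 the lower, with Zfp775 at -1.38. Fosb did not exceed 0.691 CPM in CGR8 and Kctd11 did not exceed 0.845 CPM.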

How the data were processed

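Polyadenylated RNA was sequenced with a stranded kit, per the labels' protocols. The authors deposited 1 table of read counts per gene. STAR, DESeq2 and the GRCm39 build are named, without versions, in the submitters' processing notes. The counting program, its strand setting and the annotation release are not given in the sources used here.

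Counts of the 15 NIH/3T3 libraries (18216993 to 30503109 each) were fitted with edgeR 4.0.16 in R 4.3.3 (TMM scaling, low genes removed by filterByExpr at min.count 10 and min.total.count 15, quasi-likelihood F test, Benjamini-Hochberg adjustment over all genes tested, threshold 0.05). The difference between lines was an interaction in a fit of 30 libraries. SEs were derived from the log2 fold change and F. CPM use library totals times TMM factors, except markers, which use totals alone, and CGR8 levels were scaled over 30 libraries. Alternatives used DESeq2 1.42.0 and limma 3.58.1. The method was tested on simulated data. No replicates agreed within sampling noise (chi-square per degree of freedom from 4.41 between 1 h replicates A and B to 89.1 between 1 h replicates B and C).

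Named genes were the 12 largest rises and 12 largest falls among called genes of at least 10 CPM without overlap between the times, the 2 largest called members of each list, and the 4 largest called values on each side of the line difference (at least 10 CPM in 1 line and at least 1 CPM in the other) and of the step difference (at least 10 CPM at 0, 1 or 2 h). Other list members were named after their values were seen. The members and lists were chosen with earlier results of these data known. Removal of length and GC trends was added after seeing the data. One named gene is not reported here.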

Additional observations from a re-analysis of the deposited data

Results flagged for a closer look

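The change from 1 h to 2 h differed between NIH/3T3 and CGR8, by the interaction test in edgeR, for 26 of the 81 named genes, against 0.576% of all genes tested. Some were named for this difference or for a large change in NIH/3T3, so no result is read from the count. The values are NIH/3T3 minus CGR8 on the log2 scale. Among early response regulators the change was higher in the fibroblasts for Fosb at 3.03, Junb at 2.98 and Atf3 at 2.35. The same held for Klf10 at 0.91, Klf6 at 0.88 and Egr1 at 1.14. No difference was called for the named genes Egr3, Nr4a3 and Tnfaip3. Fosb did not exceed 0.691 CPM in CGR8 and Kctd11 did not exceed 0.845 CPM, so their values rest on low levels in that line. For Egr1 the difference stands beside a fibroblast change that did not pass the test. Repressors and co-repressors gave 1.99 for Skil, 1.97 for Nfil3, 1.90 for Hes1 and 1.70 for Bhlhe40. Signalling genes gave 1.78 for Dusp5, 1.71 for Hbegf, 1.44 for Errfi1 and 1.29 for Socs2. Kctd11 stood at 2.48, the RNA-binding protein gene Arid5a at 1.73, and the deadenylation genes Btg2 and Btg1 at 1.62 and 0.99. Lower in the fibroblasts were Zfp775 at -1.38, Cbx2 at -1.34, Plat at -1.34, Zswim3 at -1.11, Tfap4 at -1.03, Zfp251 at -0.85, Zfp12 at -0.81 and Fam102a at -0.73.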

How the results depend on the processing

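The counts moved with the libraries used, 1 h replicate C and 2 h replicate A among them, and with the way the spread was estimated. The 2419 genes called became 8092 with voom sample weights, 7419 without both libraries and 60 with the 6 libraries alone, and 511 to 6295 when 1 library was left out. The 165 genes at least 2-fold changed became 64 among genes of at least 5 CPM, 508 with voom weights, 482 without both, 40 with the 6 libraries alone, and 97 to 370 when 1 library was left out. The 101 line differences became 167 with DESeq2, 324 with voom weights, 145 without both, and 62 to 129 when 1 library was left out. The 44 step differences became 29 with DESeq2's size factors in edgeR, 124 with DESeq2, 287 without the filter, 6270 with voom weights, 5359 without both and 1 with the 9 libraries of 0, 1 and 2 h, and 5 to 3659 when 1 library was left out. The cause was not tested. Plat changed sign at values near 0 (0.02 with DESeq2's size factors, DESeq2, voom weights or the 6 libraries alone, 0.10 without both, and -0.13 to 0.11 over the libraries left out), as did Egr1 (-0.01 with voom weights, -0.09 without both, and up to 0.43 without 1 h replicate B). Of the other values of named genes, 1111 kept direction and side of the threshold, 166 lost the threshold and 1, Egr1 with length and GC trends removed, gained it. Of the 12 largest rises 10, and of the 12 largest falls 9, were called in all 16 alternatives, and Fosb in the 15 that tested it. Tcim, Zc3hav1l, Sema4c and Zfp12 were lost with the 6 libraries alone (adjusted p 0.0618, 0.0933, 0.0558 and 0.0618). Whether the letters pair the samples was not settled. Between 1 h and 2 h the same-letter correlations of deviations were -0.24 for A, 0.24 for B and -0.14 for C. Between 1 h replicate C and 2 h replicate A, which stood apart, the correlation was 0.34. With 3 libraries a time these 2 weigh on every deviation, so the values cannot decide it. With the letter as a replicate block, 2537 genes were called, 156 at least 2-fold, with 100 line and 40 step differences.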
